A study of Mus musculus with 305 samples.

Results

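The mitochondrial genome of the mouse encodes 13 proteins, 2 ribosomal RNAs and 22 transfer RNAs. These 37 genes were followed through 6 brain regions of mice that had taken saline or heroin. They were chosen as the rows of the count table whose Ensembl identifier carries a symbol starting with mt- in GENCODE M21, and they are 37 of the 52636 genes of the table. The proteins are subunits of the respiratory complexes I, III and IV and of the ATP synthase (complex V), which nuclear genes complete. The ribosomal and transfer RNAs serve the mitochondrial ribosome that makes these proteins. Both strands of the circular genome are transcribed as long precursors, from which the single RNAs are cut out, commonly at the transfer RNAs that lie between them. Steady-state levels therefore depend on how long each RNA lasts as well as on transcription. In brain, oxidative phosphorylation supplies most of the ATP that neurons use.

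Bulk RNA-seq libraries came from 51 wild-type male mice that self-administered saline or heroin, an opioid, through a vein during 15 d. S24 (8 mice, saline) and H24 (11 mice, heroin) were sampled after 24 h of withdrawal. The other groups, of 8 mice each, were sampled after 30 d of withdrawal, a challenge injection and a test of drug seeking of 2 h. Their first letter gives the history and their last the challenge: SS had saline and saline, SH saline and heroin, HS heroin and saline, HH heroin and heroin. From each mouse came the basolateral amygdala (BLA), nucleus accumbens (NAc), prefrontal cortex (PFC), ventral tegmental area (VTA), dorsal striatum (dStri) and ventral hippocampus (vHPC). BLA of mouse 37 (S24) is not analysed here. The labels give no age and no strain beyond wild type.

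The VTA library of HH mouse 7 held 889900 counts and was left out. The other libraries held 19.3 M to 61.4 M counts (M for mega, median 31.5 M). In 14 libraries, spread over all 6 regions, the rank correlation with the rest of their region was low, and these are said to stand apart. The region labels were met by their marker genes in edgeR's quasi-likelihood test, each region against the mean of the other 5. All 6 dopamine neuron markers were higher in VTA (median log2 difference 7.07). All 9 markers of striatal projection neurons were higher in dStri (4.12) and NAc (3.24), and all 7 of excitatory neurons in PFC (3.75) and BLA (2.43), with 6 of 7 in vHPC. Choroid plexus markers were also higher in BLA (6 of 6, median 2.91) and vHPC (5 of 6, 2.62).

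The members took 3.69% of all counts of a library on average, and from 1.33% to 7.66%. The 2 ribosomal RNAs had 2.09% of the counts, although the kit removes ribosomal RNA, and their share ran from 0.278% to 5.87%. The 13 mRNAs had 1.59% (1.05% to 2.57%), and the 22 transfer RNAs 0.00357%. Levels of different genes are compared below in CPM (the counts of a gene scaled to a common library total) per kb of exon, as medians over all libraries kept. All members are single-exon genes on chrM (GRCm38), 28 of them on the plus strand.

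Among the mRNAs the most abundant was mt-Co1, the catalytic subunit of cytochrome c oxidase, at 6466 CPM per kb (ENSMUSG00000064351, chrM:5328-6872). It alone supplied 66.3% of the counts of the 13 mRNAs, between 64.1% in dStri and 68.9% in VTA. mt-Nd1 (complex I, chrM:2751-3707) followed at 1924 CPM per kb and mt-Cytb, the subunit of complex III (chrM:14145-15288), at 1651. Of the remaining complex I mRNAs, 4 came next, with mt-Nd2 at 432 CPM per kb, mt-Nd4 at 346, mt-Nd5 at 236.8 and mt-Nd6 at 139.4. mt-Nd6 (chrM:13552-14070) lies alone among the mRNAs on the minus strand. The last 6 mRNAs stood much lower. mt-Co3 and mt-Co2, the other mitochondrial subunits of cytochrome c oxidase, were at 42.3 and 39.6 CPM per kb. mt-Nd3 was at 14.8, mt-Atp6 at 11.9, mt-Atp8 at 3.12 and mt-Nd4l at 1.05. The ribosomal RNAs, at 10120 CPM per kb for mt-Rnr2 (chrM:1094-2675) and 1717 for mt-Rnr1 (chrM:70-1024), had passed through a depletion step.

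**Figure D1:**
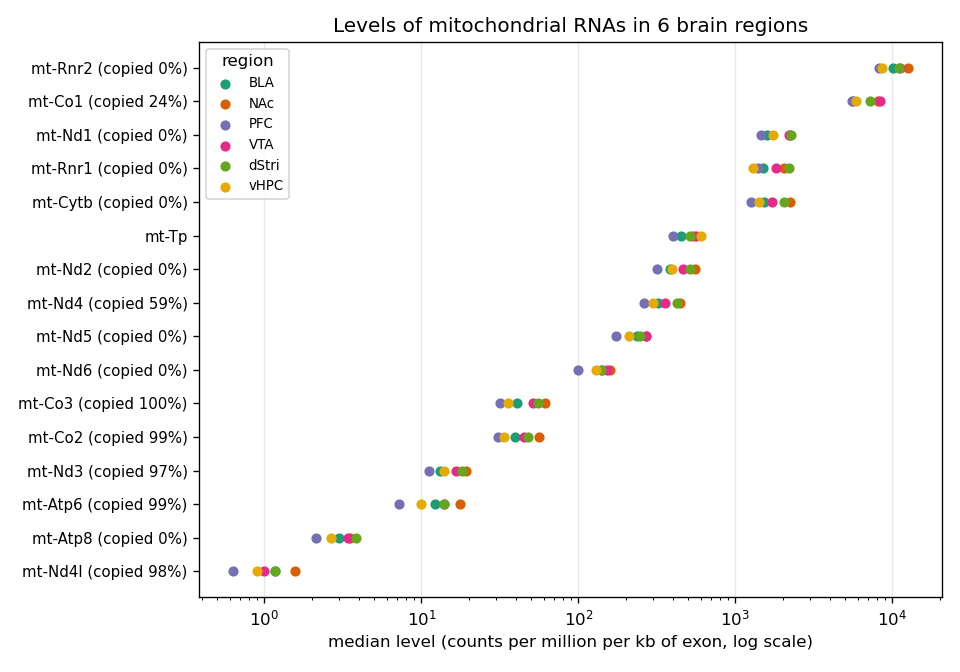
Median level of the 15 mRNAs and ribosomal RNAs and of mt-Tp in each brain region, in CPM per kb of exon on a log axis; the label gives the percentage of 150-base windows of each gene that occur verbatim in another annotated transcript. mt-Co1 stands at 6466 and mt-Nd4l at 1.05 CPM per kb over all libraries, and the 5 genes copied almost whole lie at the low end with mt-Atp8.

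Transfer RNAs were nearly unseen. The 22 genes differed widely, and 19 of them had a median of 0 CPM. mt-Tp, which carries proline, was counted in every library at 34.4 ± 7.29 CPM (SD over all libraries kept; 16.2 to 60.1). mt-Tc, for cysteine, followed at 0.968 ± 0.48 CPM and mt-Tm, for methionine, at 0.189 ± 0.189. The opposite end is shown by mt-Td and mt-Tr, without a count in any library, and mt-Tf, with 3 counts in all. mt-Te, for glutamate, borders mt-Nd6 on the same strand and reached 68 counts over all libraries kept. All transfer RNA genes are shorter than a read end of 150 bases, so that a full read end extends past the gene. Whether their counts come from mature transfer RNAs or from longer RNAs was not tested. The GENCODE M21 (GRCm38) transcripts of mt-Tp, mt-Te and mt-Tf are given 5′ to 3′ with the anticodon in capitals. These 3 genes of like length had very different counts. They lie at chrM:15356-15422 (minus strand), chrM:14071-14139 (minus) and chrM:1-68 (plus).
mt-Tp: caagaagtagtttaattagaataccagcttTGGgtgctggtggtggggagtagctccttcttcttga
mt-Te: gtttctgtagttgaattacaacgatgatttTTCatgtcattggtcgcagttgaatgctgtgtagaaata
mt-Tf: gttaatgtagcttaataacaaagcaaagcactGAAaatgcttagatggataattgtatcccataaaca

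Some neighbouring genes overlap. The last 43 bases of mt-Atp8 (chrM:7766-7969) are the first 43 of mt-Atp6 (chrM:7927-8607), which encode subunits of the ATP synthase in different reading frames. mt-Nd4l and mt-Nd4 share 7 bases, and mt-Nd5 and mt-Nd6 share 14 on opposite strands. How reads in such stretches were assigned is not given in the sources used here. mt-Atp8 is printed with the shared bases in capitals, because this overlap is the longest among the members.
mt-Atp8: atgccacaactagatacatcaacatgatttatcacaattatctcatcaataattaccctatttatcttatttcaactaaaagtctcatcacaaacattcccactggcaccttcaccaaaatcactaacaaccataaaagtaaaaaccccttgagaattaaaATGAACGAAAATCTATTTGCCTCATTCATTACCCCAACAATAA

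The genes at the low end also have near-identical copies in the nuclear genome. A block of unprocessed pseudogenes at chr1:24611535-24616197 (GRCm38, minus strand) repeats the stretch of the mitochondrial genome from within mt-Co1 to within mt-Nd4. Of all 150-base windows of a member, the length of 1 read end, those found verbatim in another annotated transcript made up 99.8% for mt-Co3, 99.4% for mt-Co2 and mt-Atp6, 97.97% for mt-Nd4l and 96.98% for mt-Nd3. The share was 59.2% for mt-Nd4 and 23.6% for mt-Co1. It was 0% for mt-Nd1, mt-Nd2, mt-Nd5, mt-Nd6, mt-Cytb, mt-Atp8 and both ribosomal RNAs. For mt-Atp8 this means only that no annotated transcript holds such a window. The annotation has no gene at chr1:24614652-24614884, between the copies of mt-Atp6 and mt-Co2, and the sequence of that stretch was not read here. A read within a copied window cannot be placed by its sequence, and how such reads were counted is not given in the sources used here. Values of mt-Co2, mt-Co3, mt-Atp6, mt-Nd3 and mt-Nd4l, called the copied mRNAs below, are therefore uncertain.

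A pair of windows from each of 2 genes shows how little separates a member from its copy. In the windows printed, mt-Nd3 (chrM:9459-9501) differs from Gm28438 by T3C, and mt-Co1 (chrM:6390-6433) from Gm29216 by A1066T. Positions count from 1 at the 5′ end of the member, and capitals mark the differing base.
mt-Nd3 window: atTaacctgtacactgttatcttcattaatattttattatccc
Gm28438 window: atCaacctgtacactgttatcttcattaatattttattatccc
mt-Co1 window: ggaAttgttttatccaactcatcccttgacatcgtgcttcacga
Gm29216 window: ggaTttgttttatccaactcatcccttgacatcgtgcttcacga
In mt-Nd4l (chrM:9877-10173), only the 3 bases in capitals lie beyond the end of its copy Gm10222.
mt-Nd4l: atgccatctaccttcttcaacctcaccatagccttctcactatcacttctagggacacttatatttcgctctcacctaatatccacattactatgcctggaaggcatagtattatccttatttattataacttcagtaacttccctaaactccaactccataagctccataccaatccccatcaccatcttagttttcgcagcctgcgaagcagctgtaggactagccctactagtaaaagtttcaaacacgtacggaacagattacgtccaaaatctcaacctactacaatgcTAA

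The counts of a copied mRNA and of its copy were of like size in the median over libraries, but not in every library. In single libraries the ratio of member to copy ran from 0.30 to 8.14 for mt-Co3. It ran from 0.27 to 6.52 for mt-Nd3 and from 0.31 to 1.21 for mt-Atp6. The median ratio of member to copy was 1.01 for mt-Co3 over Gm28437, 1.14 for mt-Co2 over Gm28661 and 1.29 for mt-Nd3 over Gm28438. It was 0.645 for mt-Atp6 over Gm10925 and 0.838 for mt-Nd4l over Gm10222. For the partly copied genes the ratio was far larger, at 246.5 for mt-Nd4 over Gm28439 and larger still for mt-Co1 over Gm29216. The spread between mice of a group and region also parted the genes. On the log2 CPM scale its SD was 0.19 for mt-Co1, 0.20 for mt-Nd1, 0.22 for mt-Cytb, 0.25 for mt-Nd4 and 0.27 for mt-Nd5. For the copied mRNAs it ran from 0.63 (mt-Nd3) to 0.89 (mt-Nd4l), and mt-Atp8, at a median of 0.636 CPM, had 0.90. The ribosomal RNAs varied as much, with an SD of 1.05 for mt-Rnr1 and 0.68 for mt-Rnr2.

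Mitochondrial mRNAs took the largest share of the counts in VTA and NAc and the smallest in PFC. The share was 1.89% ± 0.214 (SD, n = 50; lowest 1.502, median 1.84, highest 2.55) in VTA and 1.88% ± 0.213 (n = 51; 1.41, 1.87, 2.50) in NAc. dStri had 1.74% ± 0.291 (n = 51; 1.15, 1.75, 2.57). vHPC followed with 1.40% ± 0.187 (n = 51; 1.10, 1.40, 1.87) and BLA with 1.36% ± 0.167 (n = 50; 1.05, 1.34, 1.78). PFC had 1.27% ± 0.106 (n = 51; 1.05, 1.28, 1.58). VTA and NAc overlapped almost wholly, and only the upper libraries of PFC reached the lowest of those 2 regions. In bulk tissue, fewer cells of a type and less RNA per cell cannot be told apart.

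**Figure D2:**
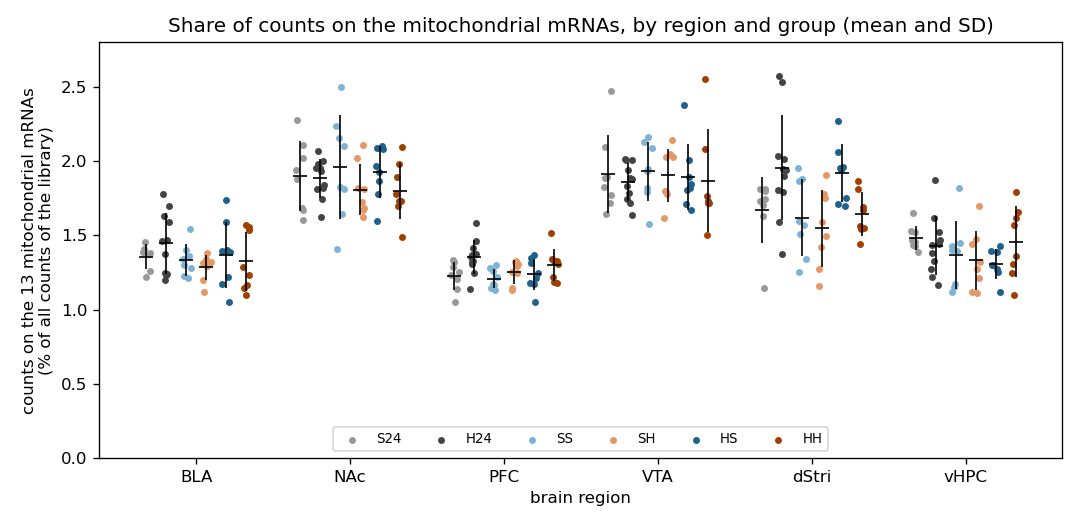
Share of the counts of each library that fell on the 13 mitochondrial mRNAs, in percent of all its counts; points are mice, coloured by group, and lines give the mean and SD of each group in each region. The groups overlap within each region: PFC libraries lie between 1.05% and 1.58%, and NAc libraries between 1.41% and 2.50%.

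To compare regions gene by gene, all libraries kept were fitted together with the mouse as a block, since the 6 regions come from the same animals. Of the members, 18 of 37 had enough counts to be tested: the 13 mRNAs, both ribosomal RNAs, mt-Tp, mt-Tc and mt-Tm. In NAc 15 were called higher than the mean of the other 5 regions and 0 lower, where 37.5% of all 21609 tested genes were higher and 35% lower. The 13 mRNAs were all among them. In PFC 16 were lower and 0 higher (34.7% and 35.6% of all genes), namely the 13 mRNAs, both ribosomal RNAs and mt-Tp. The median log2 difference of the 13 mRNAs was 0.44 in NAc and -0.48 in PFC, beside 0.01 and 0.00 for the median of all genes and members counted together at 0.32 and -0.45.

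The other regions were mixed. VTA had 7 members higher and 0 lower (38.8% and 43.6% of all genes), and dStri 7 higher and 1 lower (37.5% and 37.3%). vHPC had 1 higher and 10 lower (33.5% and 34.5%), and BLA 1 higher and 6 lower (31.4% and 30.8%). PFC was the lowest region for each of the 15 mRNAs and ribosomal RNAs.

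By pairs of regions, all 15 mRNAs and ribosomal RNAs were called between NAc and PFC (36.9% of all genes higher in NAc and 34% lower) and between NAc and vHPC (38.7% and 36%). Between dStri and PFC 14 were called (36.4% and 35.5%), between BLA and PFC 12 (29.3% and 30%), and between PFC and VTA 12 (42.4% and 37.3%), in each case lower in PFC. Between BLA and NAc 9 were called (33.6% of all genes higher in BLA and 36.4% lower). The 2 striatal regions differed least. Between dStri and NAc (22.3% and 25.4% of all genes) only mt-Co3 was called, 0.42 ± 0.16 (SE) higher in NAc on the log2 scale (adjusted p = 0.025).

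**Figure D3:**
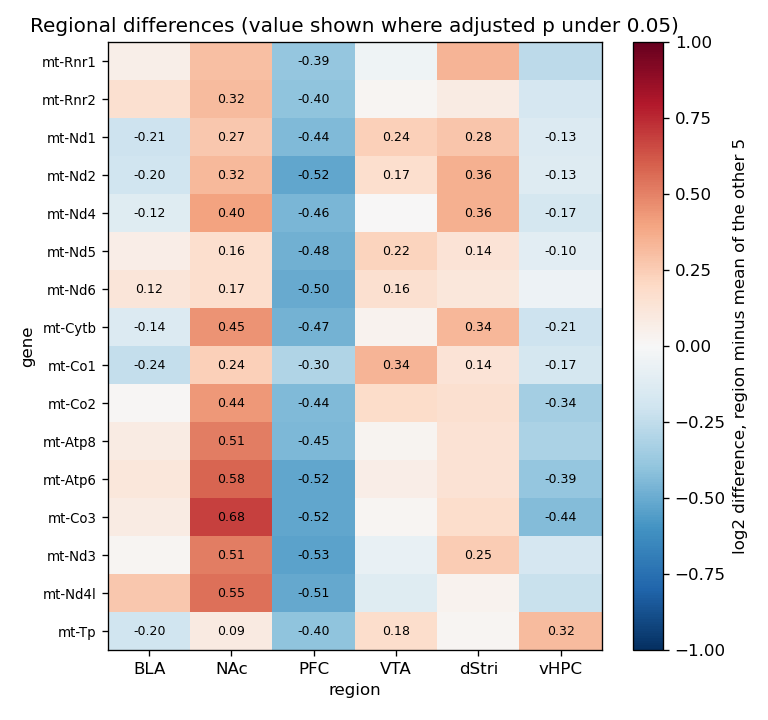
Log2 difference of each tested mRNA and ribosomal RNA and of mt-Tp, region minus the mean of the other 5 regions; a number stands where the adjusted p was under 0.05. The PFC column is blue throughout, from -0.30 for mt-Co1 to -0.53 for mt-Nd3, and the NAc column is red, up to 0.68 for mt-Co3.

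Complex I takes electrons from NADH, and 7 of its subunits are mitochondrial. mt-Nd1 ran from 1315 to 3306 CPM in dStri (median 2177), 1572 to 2850 in NAc (2128), 1695 to 3179 in VTA (2103), 1167 to 2316 in vHPC (1660), 1221 to 2078 in BLA (1525) and 801 to 1846 in PFC (1387). All regions overlapped in single libraries. dStri, NAc and VTA were not told apart (differences of 0.01 ± 0.043 and 0.02 ± 0.043), VTA exceeded vHPC by 0.31 ± 0.043 on the log2 scale (adjusted p = 1.5e-11), and BLA exceeded PFC by 0.19 ± 0.043 (adjusted p = 3.8e-05). mt-Nd2 ran from 365 to 763 CPM in NAc (median 577), 309 to 915 in dStri (531), 299.2 to 839 in VTA (483), 223.98 to 751 in vHPC (411), 238.2 to 563 in BLA (396) and 109.001 to 506 in PFC (329). mt-Nd4 ran from 463 to 868 CPM in NAc (615), 366 to 896 in dStri (584), 377 to 707 in VTA (493.5), 291.98 to 584 in BLA (440), 281.9 to 900.5 in vHPC (411) and 189 to 538 in PFC (361). Both put the 2 striatal regions first and PFC last, with ranges that overlapped. mt-Nd2 and mt-Nd4 were called higher in dStri and NAc, with log2 differences from the other regions of 0.36 and 0.32 for mt-Nd2 and of 0.36 and 0.40 for mt-Nd4.

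mt-Nd5, the long subunit at the far end of the membrane arm, was ordered differently, with VTA first. Its level in VTA was 357 to 785 CPM (median 495), in NAc 362 to 657 (491), in dStri 276.7 to 701 (452), in BLA 308 to 633 (429), in vHPC 263.9 to 1045 (385) and in PFC 173 to 512 (314). Its neighbours differed only at the low end, BLA from vHPC by 0.14 ± 0.056 (adjusted p = 0.027) and vHPC from PFC by 0.31 ± 0.056 (adjusted p = 1.7e-07). mt-Nd6, from the other strand, was higher in NAc (0.17 ± 0.053), VTA (0.16 ± 0.054) and BLA (0.12 ± 0.054, adjusted p = 0.040) and lower in PFC (-0.50 ± 0.056). The BLA call for mt-Nd6 was the one higher member of that region and was lost under 8 of the alternative settings. mt-Nd3 and mt-Nd4l, both copied, were higher in NAc (0.51 ± 0.098 and 0.55 ± 0.16) and lower in PFC (-0.53 ± 0.11 and -0.51 ± 0.18).

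mt-Cytb is the only mitochondrial subunit of complex III, which passes electrons to cytochrome c. It ran from 1813 to 3308 CPM in NAc (median 2537), 1406 to 3366 in dStri (2341), 1628 to 2653 in VTA (1971), 1218 to 2205 in BLA (1731), 1169 to 2335 in vHPC (1625) and 624.6 to 1775 in PFC (1435). Not one PFC library reached the lowest NAc library. NAc lay 0.45 ± 0.034 above the mean of the other regions (adjusted p = 4.2e-29) and PFC 0.47 below it (-0.47 ± 0.037, adjusted p = 1.7e-28). In the order of levels, dStri exceeded VTA by 0.25 ± 0.046, VTA exceeded BLA by 0.15 ± 0.047, and vHPC exceeded PFC by 0.22 ± 0.046, while NAc and dStri, and BLA and vHPC, were not told apart.

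Cytochrome c oxidase (complex IV) hands the electrons to oxygen. mt-Co1 ran from 9777 to 17468 CPM in VTA (median 12854), 9181 to 16618 in NAc (12476), 7396 to 16549 in dStri (11190), 6983 to 12081 in vHPC (9124), 6334 to 11771 in BLA (8631) and 7141 to 10565 in PFC (8505). VTA was highest, 0.08 ± 0.040 above NAc (adjusted p = 0.043), and dStri exceeded vHPC by 0.26 ± 0.040 (adjusted p = 9.6e-10). As neighbours in this order, vHPC and BLA (0.05 ± 0.040) and BLA and PFC (0.05 ± 0.040) were not told apart. PFC was called lower than vHPC, which is not its neighbour. Against the other regions, mt-Co1 in VTA was 0.34 ± 0.030 higher, whereas mt-Cytb there was at 0.04 ± 0.036 (adjusted p = 0.33) and mt-Nd4 at 0.00 ± 0.041 (adjusted p = 0.96). mt-Co3 ran from 17.9 to 161 CPM in NAc (median 47.8) and from 11.8 to 118.6 in PFC (24.8), so that single PFC libraries were as high as most of NAc. The copied mt-Co2 and mt-Co3 were called higher in NAc (0.44 ± 0.099 and 0.68 ± 0.12) and lower in vHPC (-0.34 ± 0.10 and -0.44 ± 0.13) and PFC (-0.44 ± 0.11 and -0.52 ± 0.13).

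The ATP synthase subunits mt-Atp6 and mt-Atp8 were also called in both regions, with NAc at 0.58 ± 0.13 and 0.51 ± 0.15 and PFC at -0.52 ± 0.14 and -0.45 ± 0.16. The nuclear copies themselves, 7 genes that are no members, were also all higher in NAc (median 0.62) and all lower in PFC (-0.56). Since a copied gene and its copy cannot be separated by most reads, the regional values of these mRNAs cannot be told apart from those of the copies. The 6 mRNAs without a copied window in the annotated transcripts, mt-Nd1, mt-Nd2, mt-Nd5, mt-Nd6, mt-Cytb and mt-Atp8, were each called higher in NAc and lower in PFC as well. The part of the copies in the regional differences was not tested.

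Of the ribosomal RNAs, mt-Rnr2, of the large subunit, ran from 10444 to 51071 CPM in NAc (median 19971) and from 2604 to 33973 in PFC (12936). The 2 ranges overlapped over most of their length. NAc was nevertheless higher than the other regions (0.32 ± 0.11, adjusted p = 0.0050) and PFC lower (-0.40 ± 0.11, adjusted p = 7.9e-04). mt-Rnr1, of the small subunit, ran from 180 to 5440 CPM in PFC (median 1329) and from 576 to 7659 in NAc (1948). It was called lower in PFC (-0.39 ± 0.17, adjusted p = 0.040). That call was lost without the libraries that stand apart (-0.38 ± 0.18, adjusted p = 0.054), without the mouse block (-0.33 ± 0.17, adjusted p = 0.067) and in the 24 h mice alone (-0.16 ± 0.27). Among their neighbours in the order of regions, no pair was called for either ribosomal RNA (0 of 5 each).

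Counts on the transfer RNA gene mt-Tp had an order of their own, with vHPC first at 26.4 to 60.1 CPM (median 40.4). VTA had 30.5 to 57.02 (37.6), NAc 26.7 to 48.2 (35.9), dStri 16.2 to 45.9 (34.6), BLA 20.8 to 40.7 (30.2) and PFC 18.8 to 34.1 (26.8). vHPC exceeded the other regions by 0.32 ± 0.036 on the log2 scale (adjusted p = 3.3e-16), although 10 other members were lower there. mt-Tc was higher in VTA (0.68 ± 0.098, adjusted p = 7.6e-11), at 1.45 ± 0.503 CPM (SD), and lower in dStri (-0.45 ± 0.11), at 0.710 ± 0.389. mt-Tm, at a median of under 1 CPM in each region, was lower in vHPC (-0.47 ± 0.21, adjusted p = 0.044), a call that was lost with a lower count filter (adjusted p = 0.064).

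The nuclear genes for subunits of the same complexes were read from the same fit, so the shares of all genes called per region are those given above. Of 76 tested genes, for complexes I to V, 71 were higher and 2 lower in VTA, with a median log2 difference of 0.38. Ndufb8 (complex I) was 0.82 ± 0.030 higher there, Uqcrh (complex III) 0.59 ± 0.025, Cox7b (complex IV) 0.67 ± 0.031 and Atp5g3 (complex V) 0.52 ± 0.023, all with adjusted p under 1e-50. In NAc, where the 13 mitochondrial mRNAs were higher, 50 nuclear genes were lower and 5 higher (median -0.12). Examples were Ndufc2 (-0.30 ± 0.031), Cyc1 (-0.28 ± 0.030) and Atp5b (-0.22 ± 0.020). In PFC, where the mitochondrial mRNAs were lower, 55 nuclear genes were lower and 5 higher (median -0.11). BLA had 63 lower and 0 higher (-0.15), dStri 45 lower and 12 higher (-0.09), and vHPC 38 higher and 5 lower (0.06). The difference between the mitochondrial and the nuclear list was not tested.

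Of 28 tested nuclear genes for mitochondrial transcription and RNA processing, 15 were higher and 7 lower in NAc (37.5% and 35% of all genes). In PFC 3 were higher and 18 lower (35.6% and 34.7%). Ptcd1, a factor in processing mitochondrial RNA, was 0.70 ± 0.023 higher in NAc and lower in PFC (-0.31 ± 0.025) and VTA (-0.62 ± 0.026). Lrpprc, which stabilises mitochondrial mRNAs, was lower in NAc (-0.16 ± 0.022). Of the 9 regulators of mitochondrial biogenesis, Ppargc1a, a transcriptional coactivator, was higher in VTA (0.64 ± 0.033) and lower in NAc (-0.46 ± 0.036). Esrrg, a nuclear receptor, was higher in VTA by 2.69 ± 0.045. The regions differ in cell types too. The 6 oligodendrocyte markers were all higher in VTA (median 2.19) and all lower in PFC (-1.09), and in NAc 5 were higher (0.21), while 5 of 6 pan-neuronal markers were lower in NAc (-0.51) and all 6 higher in PFC (0.42). Their part in the regional differences of the members was not tested.

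The members were then compared across mice, on log2 CPM centred within each region and group, in 50 or 51 mice per region. Sets of 5 mRNAs each were formed by copying. The first held the copied mRNAs. The other held mt-Nd1, mt-Nd2, mt-Nd5, mt-Nd6 and mt-Cytb, which have no copied window of 150 bases. With windows of 75 bases, 5.7% were copied in mt-Nd2 and 1.66% in mt-Nd5. The copied mRNAs also had the lower levels, so that copying and level cannot be told apart between the sets. The partly copied mt-Nd4 and mt-Co1 and mt-Atp8, with its unread stretch, were in neither set. Over the set without copies, Pearson's r had a median of 0.87 in 60 pairs by region (Spearman's rho 0.85), and all 60 had a permutation p under 0.05 after adjustment over the 750 correlations computed. The 5 copied mRNAs had a median r of 0.82 (rho 0.77), again with 60 of 60. Between the sets the median r was 0.25 (rho 0.20), with 43 of 150. Without the 2 mice farthest from the median on the x axis, r within the sets stayed at or above 0.53 and 0.49. Pairs within a region share the library and its depth. The genes outside the sets were compared with both. mt-Atp8 lies between mt-Co2 and mt-Atp6. Its median r was 0.70 to 0.76 with the copied mRNAs and 0.07 to 0.27 with the other set. Whether the unread stretch between the copies of mt-Co2 and mt-Atp6 holds a copy of mt-Atp8 was not tested. mt-Nd4, copied in part, had 0.28 to 0.49 with the copied mRNAs and 0.77 to 0.90 with the other set.

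Single pairs cut across the complexes. mt-Nd6 and mt-Cytb, on opposite strands, had r from 0.71 to 0.87 over the 6 regions (median rho 0.81), and mt-Nd5 with its neighbour mt-Nd4 had 0.85 to 0.94 (0.90). All 12 values passed. mt-Co1 and mt-Co3 belong to the same enzyme, but r ran from -0.55 to 0.03 (median -0.25, rho -0.24), and 3 of 6 passed. The 2 ribosomal RNAs followed each other at r from 0.95 to 0.98 (rho 0.97, 6 of 6). mt-Nd1 with mt-Rnr2, which precedes it on the same strand, had a median r of 0.36 (rho 0.33), with 4 of 6. The smallest p that the permutations can give is 1e-05.

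Between regions of the same mouse no relation was detected for the 2 members tested. For mt-Co1, r over mice between the 15 pairs of regions ran from -0.20 to 0.18 (median 0.01, rho near 0), and for mt-Nd5 from -0.19 to 0.21 (median 0.09, rho 0.02). Of the 15, 0 had a permutation p under 0.05 after adjustment for either gene. mt-Co1 with Malat1, an abundant RNA of the nucleus, had a median r of 0.09 (rho 0.01), with 1 of 6.

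**Figure D4:**
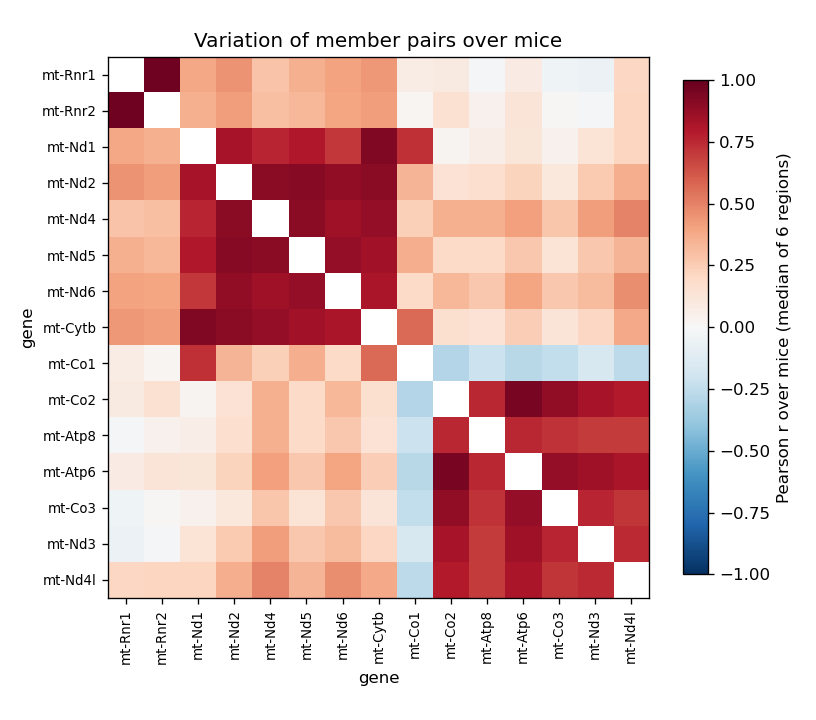
Pearson's r over mice for each pair of mitochondrial mRNAs and ribosomal RNAs, on log2 CPM centred within region and group, as the median of the 6 regions. mt-Nd1, mt-Nd2, mt-Nd5, mt-Nd6 and mt-Cytb form a block with mt-Nd4 (median r 0.87 without mt-Nd4), the copied mRNAs and mt-Atp8 form another, and mt-Co1 has negative median r with all 5 copied mRNAs.

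The study asks which transcripts respond to heroin intake, to a heroin challenge and to both. Over 6 contrasts in 6 regions, 36 tests with 627 single results for members, edgeR's quasi-likelihood test called 0 members. DESeq2 also called 0 members, and over all genes it gave 78 calls, at most 34 in a single test. At an unadjusted p under 0.05 there were 51 member results with edgeR and 45 with DESeq2. By test, 1.89% to 9.34% of all genes had such a p with edgeR. Calls with edgeR were rare throughout: the share of all genes called was 0% in each direction in all but 2 of the tests. It was 0.00506% lower for SH against SS in NAc, and 0.01% higher and 0.00501% lower for SH against SS in PFC. The smallest adjusted p of a member was 0.25. The median SE of a log2 difference was 0.10 for mt-Co1, mt-Nd1 and mt-Cytb, 0.13 for mt-Nd5, 0.38 for mt-Co3 and 0.52 for mt-Rnr1, so that changes of the abundant mRNAs could be measured much more closely than those of the copied mRNAs and ribosomal RNAs. SH, HS and HH against SS share the SS mice.

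**Figure D5:**
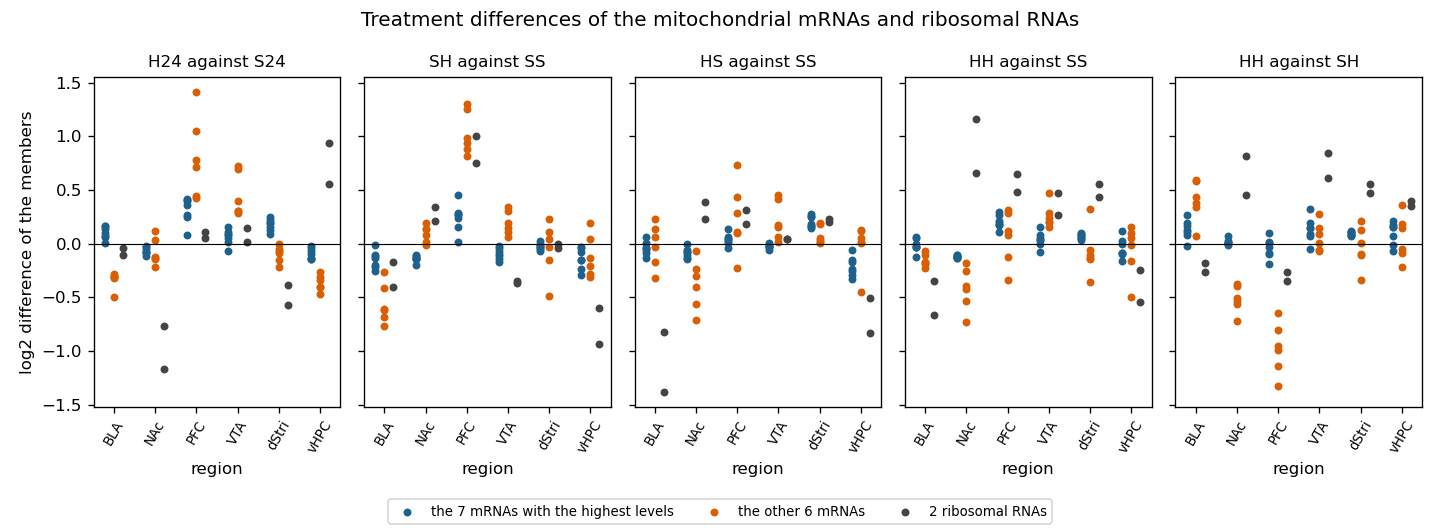
Log2 difference of the 13 mRNAs and 2 ribosomal RNAs for 5 treatment contrasts in each region; each point is 1 gene, coloured by its level and kind. No point passed an adjusted p under 0.05; the abundant mRNAs lie within -0.33 and 0.45 of 0, and the low mRNAs and ribosomal RNAs spread beyond 1 in BLA, NAc and PFC.

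mt-Co1, the best measured member, shows how close the groups lay. In PFC its group medians ran from 8310 CPM in SH to 9298 in H24, in BLA from 7790 in HH to 9692 in H24, and in VTA from 11624 in HH to 13276 in SS. In NAc they ran from 11466 in HH to 13138 in HS, and in vHPC from 8717 in HS to 10021 in S24. dStri had the widest gap, from 10016 in SS and 10131 in SH to 12740 in HS and 12820 in H24. In each region the ranges of all 6 groups overlapped.

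PFC held most of the members with a small unadjusted p. For SH against SS, all 17 tested members had positive differences, 12 with an unadjusted p under 0.05, where 5.6% of all genes had one. The median was 0.45, beside -0.01 for all genes. Members vary together across mice (median r 0.87 and 0.82 within the sets above). Counts of members, here and below, are therefore not counts of independent results. mt-Nd3 had the smallest p. It ran from 2.40 to 19.6 CPM in SH (median 4.35) and from 2.26 to 5.84 in SS (2.94). The groups overlapped, and the highest SH value came from mouse 29, whose PFC library stands apart. The log2 difference was 0.94 ± 0.26 (p = 8.6e-04, adjusted p = 0.33), with 7 of 8 SH mice above the SS mean. Without the libraries that stand apart it was 0.45 ± 0.19 (adjusted p = 0.59), and 11 of 18 members had a p under 0.05 (median 0.40). With the 2 sets of mice in the sample codes as a covariate, 12 members again had one.

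Among the abundant mRNAs, mt-Cytb ran from 1358 to 1757 CPM in SH (median 1498) and from 1194 to 1432 in SS (1304). The groups overlapped narrowly, and all 8 SH mice lay above the SS mean. The difference was 0.24 ± 0.079 (p = 0.0042, adjusted p = 0.53). mt-Nd4 showed 0.27 ± 0.094, also with 8 of 8 mice, and mt-Nd6 0.45 ± 0.16 with 7 of 8. mt-Co1, the most abundant mRNA, was at 0.01 ± 0.059 (7621 to 9319 CPM in SH and 7344 to 9105 in SS). Beside these values, the 7 nuclear copies all had a p under 0.05 (median 1.72, adjusted p from 0.33). All 6 oligodendrocyte markers had one too, in the other direction (median -0.50), with a summed level of 1076 to 2924 CPM in SH (median 1285) and 1051 to 3297 in SS (2186), and so had 5 of 6 meningeal markers (median -0.79). Their part in the differences of the members was not tested.

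For H24 against S24 in PFC, all 17 members were again positive, 10 with an unadjusted p under 0.05, where 2.48% of all genes had one. mt-Nd5 had the smallest p. It ran from 271.3 to 512 CPM in H24 (median 381) and from 173 to 344 in S24 (309), so that the groups overlapped. The difference was 0.40 ± 0.11 (p = 0.0016, adjusted p = 1.00), with 10 of 11 H24 mice above the S24 mean. The lowest S24 value was that of mouse 50, whose library stands apart. Without it, mt-Nd5 was at 0.31 ± 0.091 (p = 0.0022), and 7 of 17 members had a p under 0.05 (median 0.30). Only 15 of the 17 were then positive, since mt-Rnr1 was at -0.12 ± 0.35 and mt-Rnr2 at -0.05 ± 0.22. mt-Nd1 was at 0.27 ± 0.086 with 11 of 11 mice, and at 0.19 ± 0.059 without mouse 50.

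HH against SH in PFC had negative differences for the copied mRNAs and mt-Atp8. For these 6 the unadjusted p was under 0.05 (3.64% of all genes), and mt-Atp6 was the lowest in p at -1.14 ± 0.37 (adjusted p = 1.00). It ran from 2.99 to 9.24 CPM in HH (median 4.33) and from 3.19 to 35.3 in SH (8.47). Without SH mouse 29, 0 of 18 members had a p under 0.05, and mt-Atp6 was at -0.68 ± 0.34. The interaction of history and challenge, which tests whether the response to the challenge differed by history, had 5 of 17 members with a p under 0.05 in PFC (3.3% of all genes), led by mt-Atp8 at -1.72 ± 0.63 (adjusted p = 1.00). Without SH mouse 29, only mt-Atp8 kept an unadjusted p under 0.05 in the interaction (-1.375 ± 0.62, p = 0.032). mt-Atp6 was then at -0.96 ± 0.48 and mt-Nd3 at -0.27 ± 0.26. HH against SS in PFC had 4 of 17 members with a p under 0.05 (5.24% of all genes), and HS against SS had 0.

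In NAc the ribosomal RNAs had the smallest adjusted p of any member, for H24 against S24. mt-Rnr1 ran from 645 to 3629 CPM in H24 (median 969) and from 591 to 5193 in S24 (2989). mt-Rnr2 ran from 11875 to 38083 in H24 (14785) and from 11309 to 42386 in S24 (29113). The range of H24 lay wholly within that of S24, although the medians were far apart. For both, 10 of 11 H24 mice lay below the S24 mean. The log2 differences were -1.16 ± 0.31 for mt-Rnr1 (p = 9.1e-04, adjusted p = 0.25) and -0.77 ± 0.21 for mt-Rnr2 (adjusted p = 0.28).

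S24 mouse 37, with the lowest S24 value of both (591 CPM for mt-Rnr1), and H24 mouse 47 have NAc libraries that stand apart. Without these 2, both ribosomal RNAs were called lower in H24, with log2 differences of -1.28 ± 0.26 for mt-Rnr1 (adjusted p = 0.040) and -0.89 ± 0.19 for mt-Rnr2 (adjusted p = 0.041), where 0.192% of all genes were lower and 0.00535% higher. None of the 13 mRNAs had an unadjusted p under 0.05 in this contrast with all libraries, and mt-Co1 was at -0.02 ± 0.083. Beside these values, 6 of 7 excitatory neuron markers, which mark cortical tissue more than NAc, had a p under 0.05 (median -1.62), with a summed level of 582 to 1035 CPM in H24 (median 716) and 809 to 1168 in S24 (945). Their part in the difference was not tested.

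In dStri, HS against SS had positive differences for all 18 tested members, 4 with an unadjusted p under 0.05 (3.37% of all genes). mt-Co1 ran from 10332 to 14652 CPM in HS (median 12740) and from 7983 to 12748 in SS (10016). The groups overlapped, and all 8 HS mice lay above the SS mean. The difference was 0.28 ± 0.096 (p = 0.0070, adjusted p = 1.00). mt-Nd1 (0.26 ± 0.094) and mt-Cytb (0.25 ± 0.092) were also above the SS mean in 8 of 8 mice. For H24 against S24 in the same region, mt-Co1 was at 0.25 ± 0.10 (p = 0.025, adjusted p = 0.93), with 9 of 11 mice, and no other member had a p under 0.05. HH against SS in dStri, which shares the SS mice, had 0 of 18.

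The remaining small unadjusted p were those of ribosomal and transfer RNAs. mt-Rnr1 was at -1.38 ± 0.55 for HS against SS in BLA (p = 0.018) and at 1.16 ± 0.43 for HH against SS in NAc (p = 0.010), and mt-Rnr2 at 0.62 ± 0.29 for HH against SH in VTA (p = 0.043). mt-Tp in vHPC was at 0.34 ± 0.16 for HH against SS (p = 0.044, adjusted p = 0.53), at 34.2 to 60.1 CPM (median 41.8) in HH and 26.4 to 51.1 (35.2) in SS. None of these passed after adjustment. The 76 nuclear subunit genes had 0 called in each of the 36 tests. At an unadjusted p under 0.05 they had 25 for HH against SS in vHPC (median log2 difference 0.165), where 9.34% of all genes had one. The next largest count was 10, for HH against SH in dStri (5.24% of all genes).

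When each contrast was averaged over the 6 regions with limma, 0 members were called in the 6 contrasts, and 4 results had an unadjusted p under 0.05. Each contrast tested 18 members, and by contrast 4.75% to 7.26% of all genes had such a p. Of all genes, 0.0128% were called higher and 0% lower for H24 against S24, 0.0203% and 0.0569% for SH against SS, and at most 0.00407% in a direction for the others. The smallest p was that of mt-Nd1 for H24 against S24, at 0.11 ± 0.042 (p = 0.012, adjusted p = 0.59). mt-Nd2 followed in the interaction (0.24, p = 0.014, adjusted p = 0.92). mt-Co1 lay between -0.03 and 0.05 in all 6 averages, each with an SE under 0.06.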

How the data were processed

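The authors deposited 1 table of raw counts per Ensembl gene for 305 libraries. Per the labels' protocols, RNA came from a Qiagen RNEasy Micro kit, and libraries were strand-specific, depleted of ribosomal RNA (Illumina TruSeq Gold) and sequenced as 2 ends of 150 bases. Per the submitters' processing notes, the build was mm10 and the tools included HISAT2, HTSeq, SAMtools and FastQC. The settings for strand, overlapping genes and reads with several matches, and the annotation, are not given in the sources used here. The other 7 deposited files were not used. Of 52636 genes, 52489 had a GENCODE M21 symbol.

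Libraries with under 5000000 counts were left out (1 of 305). Genes were filtered with filterByExpr (minimum count 10), scaled by TMM and tested with edgeR 4.0.16 by its quasi-likelihood test in R 4.3.3, with Benjamini-Hochberg adjustment over all tested genes. Region differences came from 1 fit with the mouse as a block, whose dispersion trend was estimated on a seeded draw of 4000 genes plus the members. The block is the same animal, named by the mouse number of the labels. Treatment contrasts were fitted per region, 24 h and 30 d mice apart; the 24 h and 30 d groups were not compared. Averages over regions used limma 3.58.1 (voom, within-mouse correlation 0.0067 and 0.0054 for the 24 h and 30 d mice). DESeq2 1.42.0 was an alternative. The levels of genes are CPM, computed here from the deposited counts over the library's total. Copies were sought in the GENCODE M21 transcripts as exact windows of 150 bases and with BLAST 2.17.0. Correlations used log2(CPM + 0.1) and 100000 permutations, two-sided, with Python 3.11.15, NumPy 2.4.6, pandas 2.3.3 and SciPy 1.17.1. The scripts were tested on simulated data. No pair of libraries of a group and region agreed within sampling noise (lowest chi-square per degree of freedom 7.07 over 1156 pairs). A library stands apart where its median rank correlation lay over 4 scaled median absolute deviations below that of its region. Letter codes of the samples that run with region cannot be told apart from region.

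The mRNAs and ribosomal RNAs are named in every region, transfer RNAs where they lead or close the order of levels or were called, and in each treatment comparison the called member and that with the smallest p. Of each nuclear list, up to 2 called genes per direction and comparison, by smallest p, could be named. Other treatment values were added after they were seen, as were the correlations of all 120 pairs and the count filter of 1. The members and lists were chosen with earlier results of these data known. Counting error is small for the abundant mRNAs, and large for members under 1 CPM.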

Additional observations from a re-analysis of the deposited data

Results flagged for a closer look

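In groups of 7 to 8 mice, 70 combinations of member, region and group were searched for a highest or lowest mouse that lies far from the rest, and chance flags about 1 in 20 groups. Of those found, 5 were in PFC. mt-Nd5 in S24 mouse 50 was at 173 CPM, with the next at 283.4. mt-Nd3 in SH mouse 29 was at 19.6 CPM (next 7.65), and in SS mouse 22 at 5.84 (next 3.89). mt-Atp8 in the same SS mouse was at 0.874 CPM (next 0.393), and in HH mouse 16 at 0.967 (next 0.4999). In VTA, mt-Rnr2 of SH mouse 29 was at 33480 CPM (next 16170) and mt-Nd3 of HH mouse 5 at 8.88 (next 6.36). In vHPC, mt-Rnr1 of S24 mouse 35 was at 2891 CPM (next 1577) and mt-Tp of SS mouse 8 at 51.1 (next 36.4).

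The VTA library of HH mouse 7, which entered no comparison, held 889900 counts, and 8 members lay above the highest of the other VTA libraries. mt-Nd5 had 24664 counts and mt-Nd6 27492, which is 27715 and 30893 CPM against at most 785 and 126.3 elsewhere in VTA. mt-Nd2 was at 6301 CPM (highest elsewhere 839), mt-Nd4 at 1302 (707) and mt-Atp8 at 8.99 (4.97). Of the transfer RNAs, mt-Tp was at 151.7 CPM (57.02) and mt-Tc at 23.6 (2.89), and mt-Ta had 1 count. mt-Co1, the most abundant mRNA in all other VTA libraries, was at 3581 CPM there, below their lowest (9777).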

How the results depend on the processing

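Region and treatment results were refitted with other scalings, filters, tools and subsets of mice. Of the counts of called members and the regional shares of the 13 mRNAs, 648 stayed near the main value and 17 moved. Near means within 1.5 times for counts and within the SD for shares. Most of these counts were of treatment contrasts, where the main count was 0, so that few could move. Except for the NAc treatment contrast named next, those that moved were counts of the region fit. Why they moved was not tested, and the subsets of mice hold fewer animals. Without the libraries that stand apart, members lower for H24 against S24 in NAc went from 0 to 2. BLA had 0 members higher, not 1, with DESeq2 size factors, with library totals only, with the low-depth VTA library kept, without the replicate block, with DESeq2 without the block, and in saline, 24 h or 30 d mice alone. In saline mice alone, 3 members were lower in BLA, 4 higher in dStri and 1 lower in vHPC. In 24 h mice alone, 8 were higher in NAc, 10 lower in PFC, 4 higher and 1 lower in VTA and 3 lower in vHPC. In vHPC, mt-Nd2 and mt-Nd5 reversed in saline mice alone, to 0.068 and 0.038.

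Without the replicate block (the mouse) in the region fit, 3 calls were lost, mt-Nd6 in BLA (0.12, adjusted p = 0.050), mt-Rnr1 in PFC (-0.33, adjusted p = 0.067) and mt-Nd5 in vHPC (-0.09, adjusted p = 0.069). Of single values, 903 kept direction and call over all alternatives, 68 lost the call, 1 gained it and 2 reversed. Besides the called region differences, these values hold the member with the smallest p of each treatment contrast and medians of r. Only the called region differences could lose a call. No called result of NAc or PFC reversed. The median over all genes moved by more than 0.1 only for VTA with DESeq2 without the block (-0.12). The planned region fit without a count filter was not run; a filter of 1 count took its place. Values of mt-Atp8, mt-Nd4l and the transfer RNAs other than mt-Tp rest on few counts per library.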
